A study of Mus musculus with 8 samples.

Results

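ATP-binding cassette (ABC) proteins use the energy of ATP to move lipids, bile salts, drugs, conjugates, haem precursors and other compounds across membranes. Their genes were taken as all those with a symbol of Abc, a subfamily letter from a to g, and a number, and 48 of the 19938 genes measured met this rule. By subfamily these were 16 Abca, 9 Abcb, 10 Abcc, 3 Abcd, 1 Abce, 3 Abcf and 6 Abcg genes. The 48 genes had 49 probe sets, and for Abcb5, which had 2, the probe set with the higher mean stood for the gene.

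RNA was measured on 8 Affymetrix mouse arrays of hepatic stellate cells, the vitamin A storing mesenchymal cells around the liver sinusoid, isolated by density centrifugation and sorted on their retinoid autofluorescence. The control group (control 1 to 4) came from Lhx2 floxed mice without Cre and the knockout group (knockout 5 to 8) from Mx1Cre+ Lhx2 floxed mice, all on a C57BL/6J background. Both groups had received 3 treatments with poly(I:C), which induces interferon and with it the Mx1 promoter, 2 weeks before isolation. Mx1Cre acts in many cell types of the liver and the blood, and it was present in the knockout group alone, so the transgene, loss of Lhx2 in stellate cells and loss of Lhx2 in other cells cannot be told apart. The labels state neither the age of the mice nor whether each array came from a different mouse, so the spread between arrays may be technical and the p-values measure that spread.

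In the liver, ABC transporters are best known from hepatocytes. There, Abcb11 exports bile salts, Abcb4 phosphatidylcholine, Abcg5 with Abcg8 sterols, and Abcc2 conjugates, all into bile. In mesenchymal cells the family includes Abca1 and Abcg1, which release cholesterol to lipoproteins, and Abcc9, the regulatory subunit of the ATP-sensitive potassium channel of pericytes. In a sorted sample, a hepatocyte transporter can come from hepatocytes that entered the sort, and in bulk RNA fewer cells of a type and less RNA per cell cannot be told apart. The level of Alb (albumin) and the mean of 16 hepatocyte markers, called the hepatocyte score, were therefore read in each array.

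Lhx2, the floxed gene, had log2 levels of 12.07, 11.88, 11.94 and 11.92 in controls 1 to 4 and of 11.09, 11.24, 11.35 and 11.49 in knockouts 5 to 8. The knockout arrays were all lower, by 0.66 on the log2 scale (SE 0.09; limma adjusted p = 0.00136). The labels do not name the floxed part, and the probes may lie outside it. Stellate cell markers had a mean log2 level of 12.58 to 12.69 in the control and 12.19 to 12.26 in the knockout arrays. Of the 13 measured, 7 were lower in the knockout (4 without control 1 and control 4). Lhx2 itself is part of that mean and of the 7. The mean of sinusoidal endothelial markers ranged from 8.30 to 10.84 across the controls and from 8.54 to 9.79 across the knockouts. Of its 15 markers, limma called Flt1 higher (1.59) and Clec4g lower (-1.23). The means of Kupffer cell, cholangiocyte and lymphocyte markers lay between 5.94 and 8.12. Of 12 Kupffer cell and macrophage markers, 1 was called lower (Cd68, -0.61; limma adjusted p = 0.0278), and 0 of the cholangiocyte and lymphocyte markers were called. The endothelial and Kupffer counts changed under some other fits. As a guide to levels without expression, the 1190 olfactory and vomeronasal receptor genes had a 95th percentile of 6.77, which the mean of 38 of the 48 ABC genes exceeded.

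In the knockout, 3 neighbouring genes of the A subfamily rose and the bile salt exporter Abcb11 fell, while most ABC genes did not pass the test. Abca8a rose 3.35-fold, Abca8b 2.04-fold and Abca9 2.02-fold. Abcb11 fell to 46.7% of its control level and Abcb1b, a drug exporter, to 73.9%, the latter at levels close to those of unexpressed genes. At a limma adjusted p under 0.05 over all 19938 genes, 5 of 48 ABC genes (10.4%) were called, where 7.38% of all genes were. By direction, 3 were higher (6.25%, against 3.76% of all genes) and 2 lower (4.17%, against 3.63%). Whether these shares differ was not tested. The median change was -0.003 over the ABC genes and -0.02 over all genes, so the family as a whole had no common direction. Groups that did not overlap were found for 5 genes with higher and 5 with lower levels in the knockout, 10.4% each, where 6.38% and 6.32% of all genes were separated in this way. The genes called higher were the same 3 under each of the 19 other fits, in 3 of which further genes joined them. The number called lower was 1 without control 2, control 4, knockout 5, knockout 7 or knockout 8, and 0 without knockout 6. Without knockout 6, limma still gave 6 lower ABC genes an unadjusted p under 0.05. In that fit 487 of all 19938 genes were called lower, and unadjusted p-values were not counted over all genes.

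**Figure D1:**
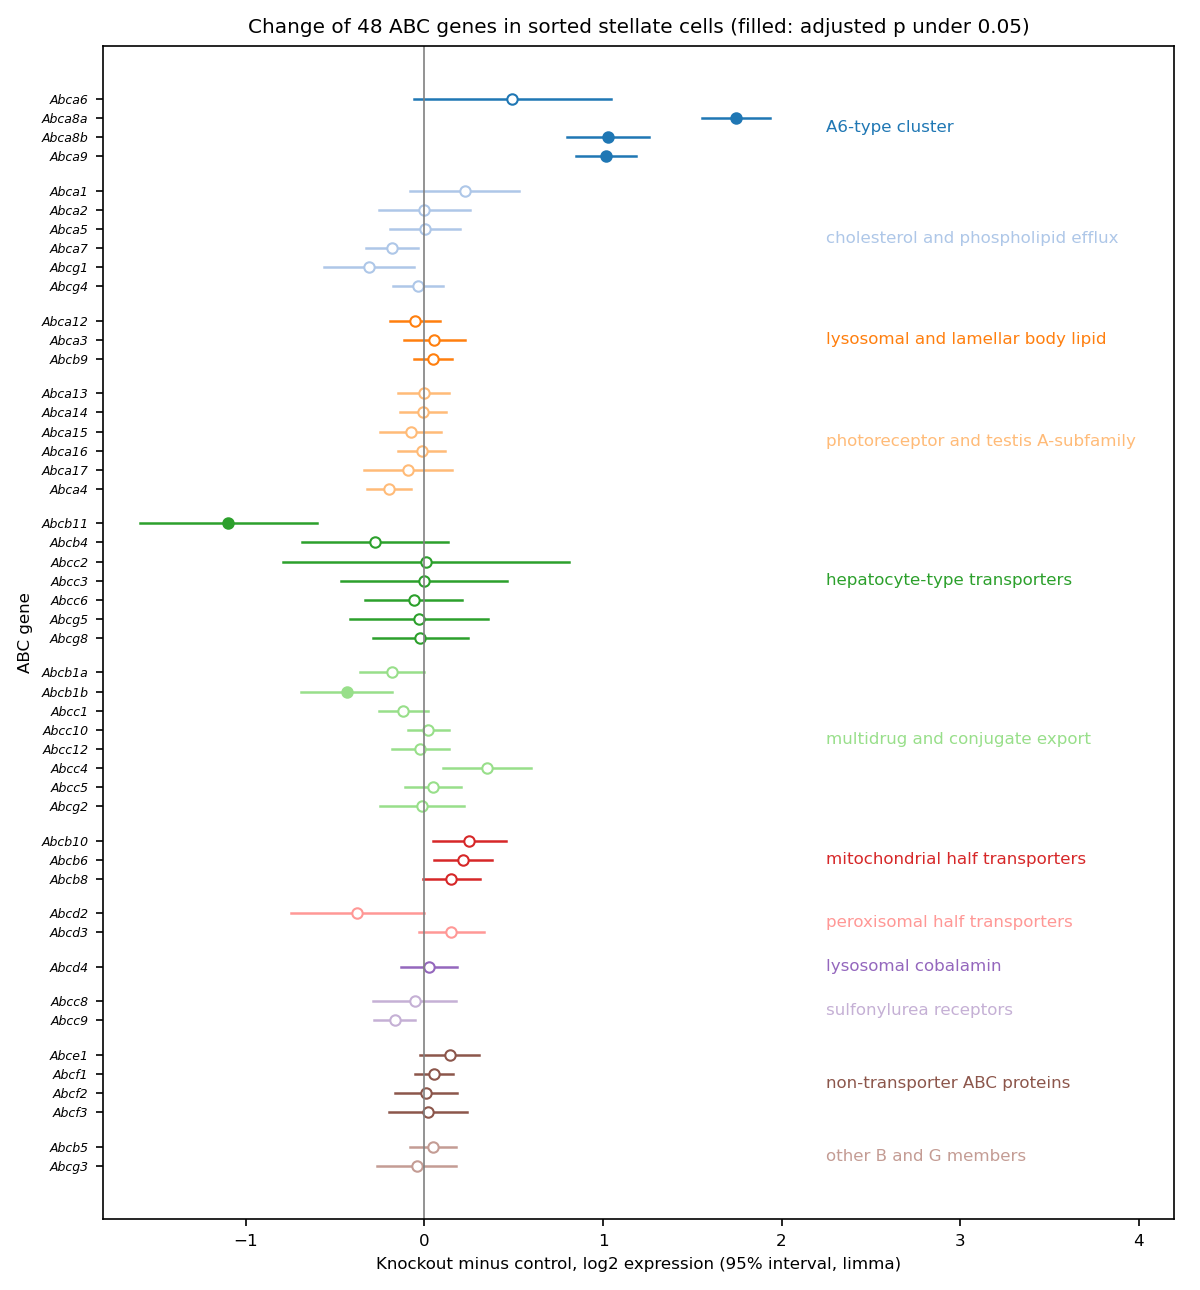
Knockout minus control difference in log2 expression of each of the 48 ABC genes (points) with its 95% interval from limma (lines), grouped by role along the vertical axis; filled points had an adjusted p under 0.05. Abca8a (1.75), Abca8b (1.03) and Abca9 (1.02) lie to the right and Abcb11 (-1.10) to the left, and the intervals of most other genes cross 0.

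The genes that rose lie side by side. In the RefSeq gene table (GRCm38.p6), Abca8b, Abca8a, Abca9, Abca6 and Abca5 follow each other on the chromosome with no other protein-coding gene between them. These 5 genes encode large lipid transporters of the A subfamily, with substrates less well known than those of Abca1. Limma called Abca8b, Abca8a and Abca9 among them, and not Abca6 or Abca5. Promoter windows from RefSeq, 250 bases before to 50 after the annotated start, are shown for the 3 genes that rose together and for Abcb11, the gene with the largest fall in the family. They lie at chr11:109995796-109996095 (Abca8b), chr11:110095888-110096187 (Abca8a), chr11:110168104-110168403 (Abca9) and chr2:69342567-69342866 (Abcb11), all on the minus strand of GRCm38.p6. Capitals mark TAATTA, a core bound by LIM homeodomain proteins, in the A-subfamily windows, and AGGTCA or its reverse complement, a half-site of nuclear receptors, in that of Abcb11.
Abca8b: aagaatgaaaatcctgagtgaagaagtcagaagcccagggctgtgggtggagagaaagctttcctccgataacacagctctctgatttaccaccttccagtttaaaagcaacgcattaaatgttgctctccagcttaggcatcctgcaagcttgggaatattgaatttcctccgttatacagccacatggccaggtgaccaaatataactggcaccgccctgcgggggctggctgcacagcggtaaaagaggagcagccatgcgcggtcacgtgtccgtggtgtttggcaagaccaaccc
Abca8a: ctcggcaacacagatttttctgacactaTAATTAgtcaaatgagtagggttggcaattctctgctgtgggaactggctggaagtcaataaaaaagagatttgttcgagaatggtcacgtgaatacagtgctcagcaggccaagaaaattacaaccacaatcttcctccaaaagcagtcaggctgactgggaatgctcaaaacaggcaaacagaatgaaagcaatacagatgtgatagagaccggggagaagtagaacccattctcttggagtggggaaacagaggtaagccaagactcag
Abca9: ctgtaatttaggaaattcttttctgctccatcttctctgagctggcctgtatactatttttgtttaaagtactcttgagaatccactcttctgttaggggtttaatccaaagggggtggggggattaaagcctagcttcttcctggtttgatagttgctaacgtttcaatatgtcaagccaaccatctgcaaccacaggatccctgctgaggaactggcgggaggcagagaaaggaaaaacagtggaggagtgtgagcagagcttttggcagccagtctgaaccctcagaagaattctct
Abcb11: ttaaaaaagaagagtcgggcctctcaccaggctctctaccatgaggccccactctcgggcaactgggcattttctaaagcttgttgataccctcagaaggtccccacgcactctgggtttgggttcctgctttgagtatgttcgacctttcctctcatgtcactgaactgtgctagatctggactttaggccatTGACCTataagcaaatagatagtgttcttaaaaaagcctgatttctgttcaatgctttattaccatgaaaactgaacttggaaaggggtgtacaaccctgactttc

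TAATTA, which reads the same on both strands, occurred once among these A-subfamily windows, starting 222 bases before the start of Abca8a. Across RefSeq, 5.29% of the 32851 promoter windows held it, and among the 38 ABC genes with a window those of Abca4 and Abca8a did. The window of Abca5, a neighbour that was not called, held none. AGGTCA on either strand occurred in 16.3% of all windows and in those of 5 ABC genes (Abcb6, Abcb11, Abcc2, Abcc10 and Abcg2), and in Abcb11 it began 56 bases before the start. The inverted repeat AGGTCANTGACCT is the site described for the bile acid receptor FXR. An exact match to it was in 3 of the 32851 windows and in none of an ABC gene. In the Abcb11 window, the bases aggccatTGACCT differ from that repeat only by c in place of T in its left part. How many other windows hold a match this close was not counted, so no background share can be set beside it. These matches describe letters in a short window and were not tested for binding.

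Abca8a (probe set 10392522) had log2 levels of 9.60, 9.77, 9.87 and 9.98 in controls 1 to 4 and of 11.61, 11.62, 11.55 and 11.43 in knockouts 5 to 8. Every knockout array lay above every control. The difference was 1.75 (SE 0.08; limma adjusted p = 2.7e-06; 19 alternatives between 2.79e-08 and 6.09e-05). Abca9 (probe set 10392560) had levels of 9.65, 9.81, 9.90 and 9.88 in the controls and of 10.79, 10.95, 10.85 and 10.71 in the knockouts. Its groups were likewise apart, with a difference of 1.02 (SE 0.07; limma adjusted p = 3.51e-05; alternatives 1.98e-06 to 0.000918). Abca8b (probe set 10392484) had levels of 8.81, 8.81, 9.26 and 9.14 in the controls. Its knockout arrays lay within a narrow band at 10.04, 10.06, 10.03 and 10.02. The difference was 1.03 (SE 0.10; limma adjusted p = 0.000244; alternatives 2.19e-05 to 0.00389). Abca8a and Abca8b are close relatives, and reads of one by the probes of the other were not tested.

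The other neighbours did not pass. Abca6 had levels of 6.71, 6.41, 7.24 and 6.38 in the controls and of 7.03, 6.97, 7.84 and 6.86 in the knockouts, so the groups overlapped. Its difference of 0.49 (SE 0.24; 95% interval -0.06 to 1.04; limma adjusted p = 0.367) was measured near the level of unexpressed genes. Control 3 and knockout 7 were highest in their groups, and they are among the 3 arrays with the highest hepatocyte score. Abca5, a lysosomal member of the subfamily, had levels of 8.40, 8.24, 8.37 and 8.40 in the controls and of 8.28, 8.39, 8.59 and 8.17 in the knockouts, a difference of 0.003 with a 95% interval of -0.20 to 0.20.

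Some markers of portal fibroblasts, the matrix-producing cells around the bile ducts, rose with these 3 genes. Of 11 measured, 5 rose in limma (Cd34, Dpt, Dpep1, Eln and Mfap4) and 6 did not pass. Of the 6, Fbln2 and Clec3b had changes of 0.27 and 0.14, and Entpd2, Thy1, Pi16 and Gli1 of -0.29, -0.10, -0.01 and -0.007. The 11 markers' mean log2 level was 7.75 to 7.94 in the control and 8.61 to 8.81 in the knockout arrays, which did not overlap. Cd34, a sialomucin of fibroblasts and other cells, had levels of 7.23, 7.76, 8.16 and 8.42 in the controls and of 10.93, 10.99, 11.23 and 10.73 in the knockouts. The cells had been sorted on retinoid autofluorescence, and the share of portal fibroblasts among them was not measured. The part of portal fibroblasts in the rise of Abca8a, Abca8b and Abca9 was not tested. No fit had the portal fibroblast markers as a covariate. For hepatocytes and endothelial cells, the change of Abca8a was 1.75 with Alb as a covariate. It was 1.75 too with hepatocyte and endothelial scores as covariates.

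**Figure D2:**
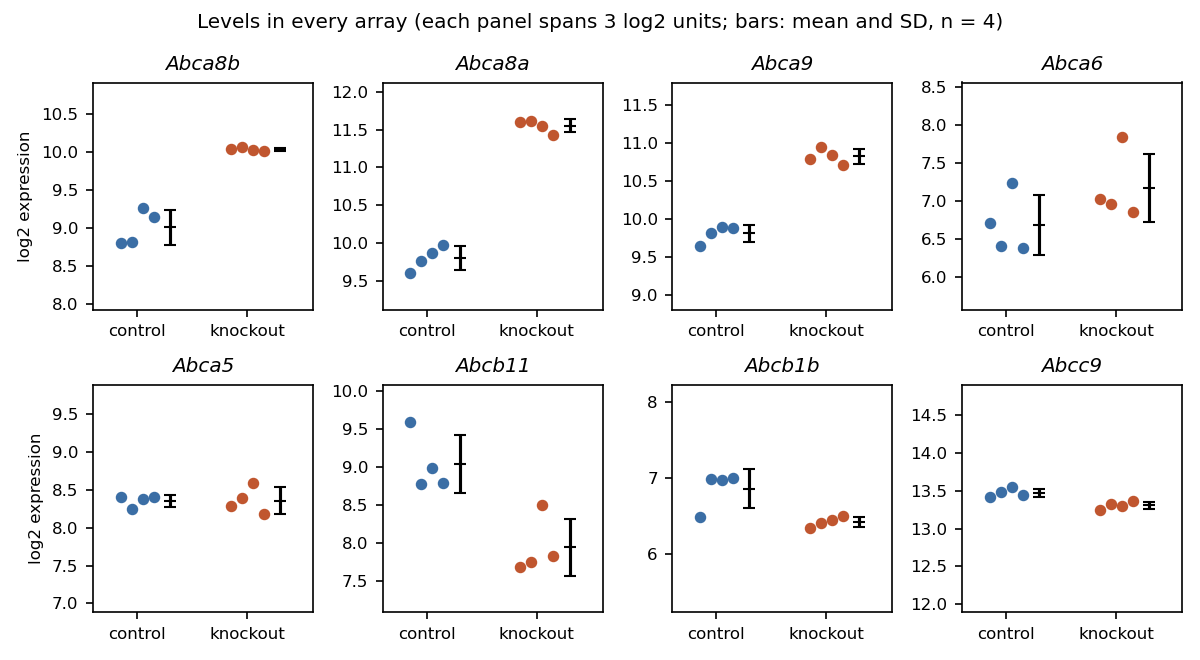
Log2 expression of 8 ABC genes in each array (points: blue control, orange knockout), with the mean and SD of the 4 arrays beside them; each panel spans the same height on the log2 scale. The knockout arrays of Abca8b, Abca8a and Abca9 lie above all controls, those of Abca6 and Abca5 overlap with them, those of Abcb11 and Abcc9 lie below, and control 1 joins the knockouts for Abcb1b.

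Abcb11 was the only hepatocyte-type transporter of the 7 to be called. Its levels (probe set 10483410) were 9.60, 8.78, 8.99 and 8.79 in controls 1 to 4 and 7.69, 7.75, 8.50 and 7.83 in knockouts 5 to 8. The groups did not overlap, and the nearest arrays were control 2 and knockout 7. The difference was -1.10 (SE 0.22; 95% interval -1.59 to -0.60; limma adjusted p = 0.0152; alternatives 0.00155 to 0.0716). The call was lost without knockout 6 (adjusted p = 0.0535) and without control 1 and control 4 together (adjusted p = 0.0716 at a change of -0.94). Control 1 and knockout 7, the highest arrays of their groups, also had the highest hepatocyte scores of their groups, 10.62 and 10.52. With the hepatocyte score as a covariate the difference was -1.07 (SE 0.14; limma adjusted p = 0.00155), and with Alb as a covariate it was -1.11 (adjusted p = 0.00711). Of the 16 hepatocyte markers limma called 0, with 2 at an unadjusted p under 0.05, and 1 was called lower with Alb, the score or both scores as covariates. Among them Cyp2e1, a hepatocyte cytochrome P450, had levels of 11.68, 10.38, 10.88 and 9.63 in the controls and of 9.30, 8.74, 10.23 and 9.47 in the knockouts. These overlapped, and the change of -1.21 (SE 0.43; limma adjusted p = 0.157) was about as large as that of Abcb11.

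Abcb11 is a textbook target of FXR, the bile acid receptor encoded by Nr1h4, whose levels were looked up after those of Abcb11 were seen. Nr1h4 had log2 levels of 12.22, 12.34, 12.34 and 12.36 in the controls and of 10.68, 10.85, 10.85 and 10.70 in the knockouts. It fell by 1.55 (SE 0.06; limma adjusted p = 1.19e-06), and its arrays lay in 2 groups that did not overlap. The related receptor Nr1h5 fell by 2.15 (SE 0.15; limma adjusted p = 2.21e-05). Nr0b2, another FXR target of hepatocytes, had a change of -0.05 (SE 0.11; limma adjusted p = 0.901) at mean levels of 6.40 and 6.35. Both means lie under the receptor gene percentile of 6.77, at levels of unexpressed genes, where a fall could be missed. Whether the fall of Nr1h4 has a part in that of Abcb11 was not tested.

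The other 6 hepatocyte-type transporters did not pass the test between the groups, and their levels varied from array to array with the hepatocyte level. Abcc2 had log2 levels of 8.13, 7.43, 8.44 and 7.03 in the controls and of 7.50, 7.25, 8.62 and 7.69 in the knockouts. Control 1, control 3 and knockout 7 were high and control 4 lowest, which is the pattern of the hepatocyte score: 10.62, 9.43, 10.43 and 8.68 in the controls and 9.56, 9.05, 10.52 and 9.78 in the knockouts. The difference between the groups was 0.01 (SE 0.35; 95% interval -0.79 to 0.81), an interval wide enough to hold a change of more than 1.5-fold in either direction. Alb ran from 12.01 in control 4 to 13.55 in control 1, at 13.55, 13.14, 13.32 and 12.01 in the controls and 13.05, 12.56, 13.34 and 13.21 in the knockouts. Its group means were 13.00 and 13.04 (exact permutation p = 0.914), and those of the hepatocyte score 9.79 and 9.73 (exact permutation p = 0.971).

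Relations of the 7 transporters to Alb were computed over the 8 arrays, with exact two-sided permutation tests adjusted over the 7. Abcg5, a part of the sterol exporter, had the closest relation, with Pearson's r = 0.87 (exact p = 0.00179, adjusted p = 0.0125) and Spearman's rho = 0.90 (exact p = 0.00456, adjusted p = 0.0106). Abcc2 had r = 0.79 (exact permutation p = 0.0156, adjusted p = 0.0364) and rho = 0.90 (exact p = 0.00456, adjusted p = 0.0106). Abcc6, a transporter of liver and kidney needed to prevent tissue calcification, had r = 0.78 (exact permutation p = 0.0138, adjusted p = 0.0364) and rho = 0.83 (exact p = 0.0154, adjusted p = 0.0215). Abcg8, the partner of Abcg5, had r = 0.77 (exact permutation p = 0.0313, adjusted p = 0.0365) and rho = 0.90 (exact p = 0.00456, adjusted p = 0.0106). Abcb4, the phospholipid exporter, had r = 0.75 (exact permutation p = 0.0267, adjusted p = 0.0365) and rho = 0.88 (exact p = 0.00724, adjusted p = 0.0127). Abcc3, which exports conjugates from hepatocytes and bile duct cells towards the blood, had r = 0.75 (exact permutation p = 0.0274, adjusted p = 0.0365) and rho = 0.71 (exact p = 0.0576, adjusted p = 0.0672).

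Abcb11 was the exception, with r = 0.28 (exact permutation p = 0.516, adjusted p = 0.516) and rho = 0.48 (exact p = 0.243, adjusted p = 0.243). In deviations from the group means, which leave out the genotype, its r was 0.60, and that of the others 0.75 to 0.87. Control 4 and knockout 6, the arrays with the lowest Alb, were farthest from the median. Without them r was 0.82 for Abcg5, 0.69 for Abcc2, 0.75 for Abcc6, 0.85 for Abcg8, 0.90 for Abcb4, 0.49 for Abcc3 and 0.81 for Abcb11 over 6 arrays. None of the 7 then passed the adjusted threshold, with 6 arrays in place of 8, though r was higher than before for Abcb4, Abcg8 and Abcb11 and lower for the other 4. The number of genes past the threshold was likewise 0 without control 1 or control 3, 1 without control 4 or knockout 7, and 3 without control 2 or knockout 6.

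Alb lies near the top of the value range, which ends at 14.42, and r with the hepatocyte score was higher for each of the 7 genes. Pearson's r with that score was 0.95 for Abcc2, 0.94 for Abcc6, 0.90 for Abcg5 and Abcb4, 0.88 for Abcg8 and 0.78 for Abcc3 (adjusted exact permutation p between 0.00295 and 0.0302), and 0.45 for Abcb11 (adjusted p = 0.258). Within the groups the r of Abcb11 with the score was 0.80, and that of Abcb4 was 0.99. In the plot of levels against the hepatocyte score, the control and knockout arrays of Abcc2, Abcc6, Abcg5 and Abcg8 share a single rising band. For Abcb11 the knockout arrays form a band of their own, below the controls at like scores.

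**Figure D3:**
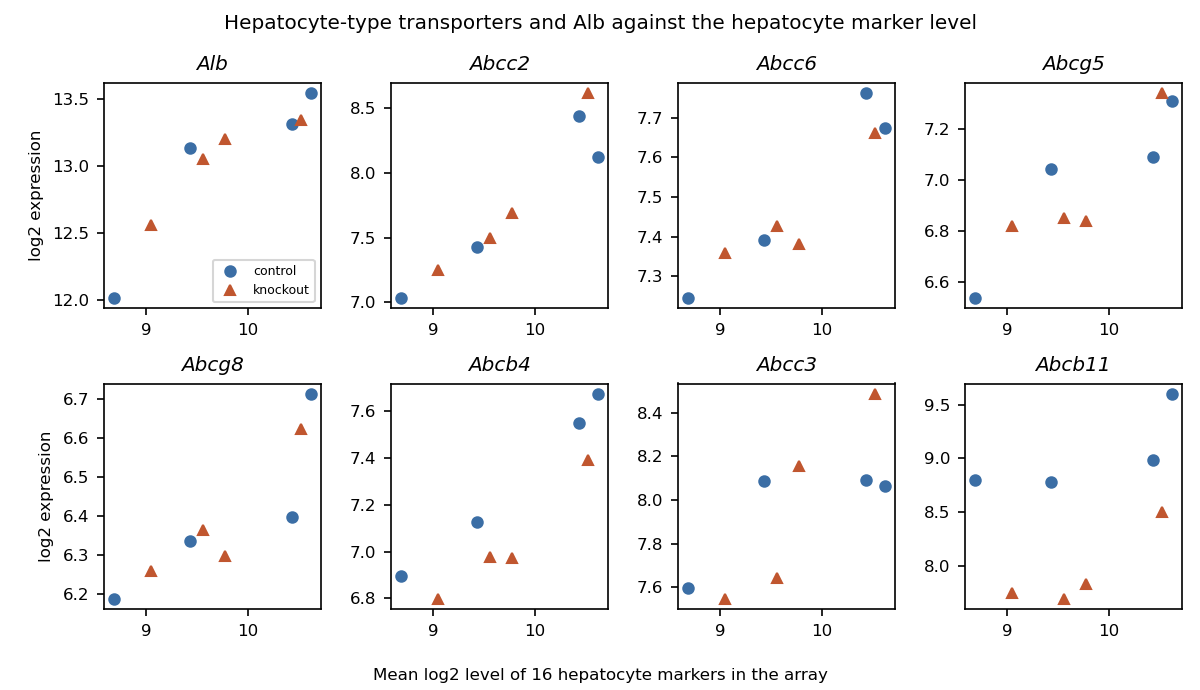
Log2 expression of Alb and of the 7 hepatocyte-type transporters (vertical axes, each with its own scale) against the mean log2 level of 16 hepatocyte markers in the same array (horizontal axis), with controls as blue circles and knockouts as orange triangles. Abcc2, Abcc6, Abcg5, Abcg8 and Abcb4 rise with the score in both groups, and every knockout array of Abcb11 lies below every control.

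The separation was also drawn by a rule over all 48 genes, an r of at least 0.8 over the arrays and again in deviations from the group means. With Alb as the reference, Abcg5 met it among the 7 hepatocyte-type transporters and none of the other 41 ABC genes did, where 1.13% of all genes met it. With the hepatocyte score, 5 of the 7 met it (Abcb4, Abcc2, Abcc6, Abcg5 and Abcg8) and of the other 41 only Abca2, where 2.49% of all genes did. Abca2, a lipid transporter best known from brain, ranged from 9.36 to 9.76 in the controls and from 9.38 to 9.82 in the knockouts, with a change of -0.0005. Abcc5, an exporter of cyclic nucleotides and other organic anions, ran the opposite way, with r = -0.85 with Alb and r = -0.92 with the score, and these were not tested. With the mean of 15 sinusoidal endothelial markers in place of the score, 0 of the 48 met the rule, where 1.62% of all genes did. These r values describe the arrays and share their normalization.

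Abcb4 was called lower in the knockout only with the hepatocyte score as a covariate, alone or with the endothelial score. Its levels were 7.67, 7.13, 7.55 and 6.89 in the controls and 6.98, 6.80, 7.39 and 6.97 in the knockouts, which overlapped. The plain difference was -0.28 (SE 0.18; limma adjusted p = 0.55; alternatives 0.0199 to 0.831). With the hepatocyte score as a covariate it was -0.25 (SE 0.05; limma adjusted p = 0.0199), and with both scores -0.27 (SE 0.06; adjusted p = 0.0277), whereas with Alb it was -0.29 (SE 0.10; adjusted p = 0.16). No alternative called Abcc2, Abcc3, Abcc6, Abcg5 or Abcg8.

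Abcc3 had levels of 8.07, 8.09, 8.09 and 7.60 in the controls and of 7.64, 7.55, 8.49 and 8.15 in the knockouts, a change of -0.003 (SE 0.21; limma adjusted p = 0.997). Abcc6 had levels of 7.67, 7.39, 7.76 and 7.24 in the controls and of 7.43, 7.36, 7.66 and 7.38 in the knockouts, a change of -0.06 (SE 0.12; limma adjusted p = 0.895). Both genes overlapped between the groups. Abcg5 had levels of 7.31, 7.04, 7.09 and 6.54 in the controls and of 6.85, 6.82, 7.34 and 6.84 in the knockouts, a change of -0.03 (SE 0.17; limma adjusted p = 0.962). Abcg8 had levels of 6.71, 6.34, 6.40 and 6.19 in the controls and of 6.36, 6.26, 6.62 and 6.30 in the knockouts, a change of -0.02 (SE 0.12; limma adjusted p = 0.962). Its mean of 6.40 lies under the receptor gene percentile of 6.77, so its relation to Alb was measured at levels of unexpressed genes. The hepatocyte uptake carriers that are not ABC proteins were not called in the plain comparison either. Of 9 measured, among them Slc10a1, the bile salt importer, 0 were called by limma and 0 had an unadjusted p under 0.05, while 1 was lower with the hepatocyte score and 2 with both scores as covariates. Slc10a1 had levels of 9.69, 8.63, 9.40 and 7.80 in the controls and of 8.45, 8.17, 9.14 and 8.49 in the knockouts, high in control 1, control 3 and knockout 7.

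The drug and conjugate exporters changed little. Of 8 measured, 1 fell, 0 rose and 7 did not pass, where 7.38% of all genes were called. In limma 3 of the 8 had an unadjusted p under 0.05, where 3484 of all 19938 genes did. Abcb1b, a P-glycoprotein (probe set 10519555), had levels of 6.483, 6.996, 6.972 and 6.997 in the controls and of 6.344, 6.409, 6.454 and 6.497 in the knockouts. Control 1 lay among the knockouts, and the mean of 6.64 over all arrays was under the receptor gene percentile of 6.77. The difference was -0.44 (SE 0.11; limma adjusted p = 0.0493; alternatives 0.000508 to 0.14), and the call was lost when any array other than control 1 was left out, and after median centring or quantile normalization. Within the groups its r with the endothelial score was 0.83, and control 1 had the lowest endothelial score of all arrays, 8.30. With both scores as covariates the change was -0.34, and Abcb1b was still called lower. The part of endothelial cells in this fall was not tested further.

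Abcb1a, the other P-glycoprotein and the neighbour of Abcb1b, had levels of 7.09, 6.93, 6.85 and 6.86 in the controls and of 6.83, 6.87, 6.70 and 6.59 in the knockouts, with a change of -0.18 (SE 0.08; limma adjusted p = 0.279). The 2 genes are close relatives, and whether the probes of either also detect the other was not tested. Abcc4, an exporter of cyclic nucleotides and prostaglandins, had levels of 7.81, 8.07, 7.77 and 8.11 in the controls and of 8.13, 8.21, 8.55 and 8.28 in the knockouts. The groups did not overlap, though control 4 and knockout 5 nearly met, and the change of 0.35 (SE 0.11; limma adjusted p = 0.101) passed with both scores as covariates alone (0.45, adjusted p = 0.0194). Abcg2, the breast cancer resistance protein, had levels of 9.25, 9.40, 9.72 and 9.74 in the controls and of 9.54, 9.54, 9.48 and 9.49 in the knockouts. Its change was -0.01 (95% interval -0.25 to 0.22). Abcc1, Abcc5, Abcc10 and Abcc12 had changes between -0.12 and 0.05.

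The cholesterol exporters of mesenchymal cells gave no call. Of 6 genes of lipid efflux and lipid handling (Abca1, Abca2, Abca5, Abca7, Abcg1 and Abcg4), limma called 0, and 2 had an unadjusted p under 0.05, both lower. Over all genes, 3484 of 19938 had an unadjusted p under 0.05 in limma. Abca1, which loads cholesterol onto apolipoprotein A-I, had levels of 10.58, 10.94, 10.84 and 10.89 in the controls and of 10.64, 11.07, 11.17 and 11.28 in the knockouts. Its change of 0.23 (SE 0.14; limma adjusted p = 0.498; alternatives 0.018 to 0.904) passed with both scores as covariates alone. Abcg1, which passes cholesterol to high-density lipoprotein, had levels of 11.16, 11.09, 11.15 and 11.18 in the controls and of 10.50, 10.79, 11.09 and 10.96 in the knockouts. The controls were close together and the knockouts spread, with the highest knockout just under the lowest control, and the change was -0.31 (SE 0.11; limma adjusted p = 0.161; alternatives 0.0593 to 0.541). Abca7, a phospholipid transporter, changed by -0.18 (SE 0.07; limma adjusted p = 0.159), with non-overlapping groups, and passed after quantile normalization alone (adjusted p = 0.0162).

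Around these exporters, genes of sterol sensing and synthesis did change. Of 23 measured genes of sterol sensing, sterol transport and LXR (the oxysterol receptor that induces Abca1 and Abcg1), 7 rose, 2 fell and 14 did not pass, with a median change of 0.03. The largest rises were of Srebf1 (0.98, SE 0.09) and Srebf2 (0.67, SE 0.08), the sterol-regulated transcription factors, Insig1, their retention factor (0.75, SE 0.19), and Npc1, the lysosomal cholesterol exporter (0.51, SE 0.05). Lipa, the lysosomal acid lipase, fell by 0.27 and Rxra, the partner of LXR, by 0.26. The 7 became 4 without control 1, control 2, knockout 7 or knockout 8, and the 2 became 1 without control 2, control 3, control 4 or knockout 8 and 0 without knockout 5, 6 or 7; without control 1 and control 4 the counts were 3 and 0. Among the LXR targets, Srebf1 rose, as above, and so did Lpcat3, a phospholipid remodelling enzyme (0.40, SE 0.07; limma adjusted p = 0.0106). Mylip and Apoe, and the LXR gene Nr1h3, did not pass, at 98.3%, 107% and 102% of their control levels. Of 17 measured cholesterol synthesis genes 11 rose and 0 fell, with a median change of 0.55 (4 rose without control 1 and control 4), a pattern already known from these data when the list was chosen.

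Abcc9, the sulfonylurea receptor SUR2, had levels of 13.42, 13.48, 13.55 and 13.44 in the controls and of 13.24, 13.32, 13.29 and 13.37 in the knockouts. The groups did not overlap, but the change of -0.17 (SE 0.05; limma adjusted p = 0.0991; alternatives 0.0254 to 0.218) passed with trend and robust fitting alone. These levels are near the top of the value range. Kcnj8, the channel pore that assembles with Abcc9, had levels of 13.00, 12.87, 13.01 and 13.05 in the controls and of 12.47, 12.51, 12.62 and 12.76 in the knockouts. It fell by 0.39 (SE 0.07; limma adjusted p = 0.0101), a call lost without control 1 and control 4 (adjusted p = 0.119). Whether the 2 changes differ was not tested. Of 10 smooth muscle and pericyte markers, Rgs4 and Mcam fell (-1.60 and -1.09), Tagln and Notch3 rose (0.77 and 0.57) and 6 did not pass. Without control 1 and control 4, 2 were lower and 1 higher. Their mean was 9.01 to 9.08 in the control and 8.78 to 9.07 in the knockout arrays, and the part of such cells in these changes was not tested. Abcc8, the receptor SUR1 of pancreatic beta cells, had levels of 7.50, 7.31, 7.07 and 7.23 in the controls and of 7.41, 7.26, 7.03 and 7.18 in the knockouts (change -0.05, SE 0.10). Kcnj11, the pore paired with Abcc8, had a change of -0.03 (limma adjusted p = 0.936).

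The ABC proteins of organelles and of the cytosol were not called. The mitochondrial members Abcb6, Abcb8 and Abcb10, which are linked to haem synthesis and mitochondrial export, had changes of 0.22 (SE 0.07), 0.15 (SE 0.07) and 0.25 (SE 0.09), with limma adjusted p of 0.13, 0.326 and 0.17. Abcb6 passed without control 3 (adjusted p = 0.0353) and Abcb10 without knockout 5 (adjusted p = 0.0496). Of 16 other genes of haem and iron-sulfur synthesis limma called 0, with 2 at an unadjusted p under 0.05 and a median change of 0.04. Abcd3, a peroxisomal importer of fatty acyl-CoA, had levels of 9.70, 9.50, 9.80 and 9.67 in the controls and of 9.78, 9.93, 9.91 and 9.67 in the knockouts, and a change of 0.15 (SE 0.08; limma adjusted p = 0.425). Abcd2, its relative for very long-chain fatty acids, had a change of -0.38 (SE 0.16; limma adjusted p = 0.28), with knockout 7 at 8.40 among the controls. Of 20 other peroxisomal genes limma called 0, with 3 at an unadjusted p under 0.05. Abcd4, a lysosomal vitamin B12 transporter, and the lysosomal members Abca3 and Abcb9 had changes between 0.02 and 0.06.

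Abce1, a ribosome recycling factor that transports nothing, had levels of 11.62, 11.39, 11.43 and 11.40 in the controls and of 11.60, 11.73, 11.60 and 11.48 in the knockouts, with a change of 0.14 (SE 0.07; limma adjusted p = 0.399). Control 1 lay with the knockouts. The translation-linked Abcf1, Abcf2 and Abcf3 had changes of 0.05, 0.01 and 0.02. Tap1 and Tap2, the antigen peptide transporters, are ABC proteins under other symbols, and both changed by -0.17 (limma adjusted p = 0.462 and 0.0828). Abca4, the retinoid transporter of photoreceptors, had levels of 6.93, 6.93, 6.77 and 6.89 in the controls and of 6.73, 6.71, 6.66 and 6.62 in the knockouts. Its groups did not overlap, but the levels lie about the percentile of 6.77, and the change was -0.20 (SE 0.06; limma adjusted p = 0.0674; alternatives 0.0289 to 0.389). Abca12, Abca13, Abca14, Abca15, Abca16, Abca17, Abcb5 and Abcc12, like Abcb1b and Abcg8 above, had mean levels under the percentile of 6.77, and the changes of the first 8 lay between -0.09 and 0.05. Abcg3 and Abcg4, the remaining members with mean levels of 7.67 and 8.04, each changed by -0.04.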

How the data were processed

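Gene expression in 4 control and 4 knockout samples was measured on 1 array each, with 150 ng of RNA per sample per the labels' protocols. The deposited log2 expression values were normalized with RMA by the authors, as the labels and the submitters' processing notes state; RMA corrects background, equalises the arrays' distributions and summarises probe sets. Neither its version nor any batch is named there, and no background or scanner setting could be varied. Of 35556 probe sets, 21789 had 1 gene symbol in the platform annotation, 1621 had several and were left out, and 12146 were unnamed; RefSeq (GRCm38.p6) held 21698 of the named ones and gave the promoter sequences. The probe set with the highest mean stood for a gene. Knockout was compared with control by limma 3.58.1 in R 4.3.3 (lmFit, eBayes) over 19938 genes and 8 arrays, two-sided, with Benjamini-Hochberg adjustment and a threshold of 0.05. Array medians were 7.42 to 7.47, and the number of arrays limits the precision. On simulated data with the means and spreads of the 19938 genes, 80% of 50 genes changed by 0.5 and 98% to 100% of those changed by 1, 2 or 3 were recovered. A further 10 genes left unchanged were called. The genes were simulated independently, without variation shared between genes, so recovery in the real arrays may differ. Exact permutation tests used all 70 assignments of arrays to groups or all 40320 pairings of arrays. All members could be named; given in full were called members, hepatocyte-type transporters and Abca1, Abcg1, Abcc8, Abcc9, Abcb1a, Abcb1b, Abcg2, Abcd3 and Abce1, and other genes were named from lists (at most 4 called genes each, by size), save Nr1h4, Nr1h5, Nr0b2 and uncalled or further genes given to complete a count or for their known role, chosen after their values were seen. Members and lists were chosen with earlier results of these data known. Alternatives were other scalings, a filter on dim genes, other limma settings, other probe set rules, marker covariates and leaving out arrays.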

Additional observations from a re-analysis of the deposited data

Results flagged for a closer look

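In 7 of 108 groups of 4 arrays examined (54 genes, each in both groups), the gap between 1 array and the rest took up more of the group's range than Dixon's critical value at 95% allows; chance gives about 1 in 20. Knockout 7 was high for Abca6 (7.84, where the other knockouts reached 7.03), Abcg5 (7.34, others up to 6.85) and Abcf3 (9.37, others up to 9.32). It had the highest hepatocyte score of the knockouts, 10.52. Control 1 was low for Abcb1b (6.48, others from 6.97) and high for Abce1 (11.62, others up to 11.43). Control 4, which had the lowest Alb, was low for Abcc3 (7.60, others from 8.07), and control 2 was low for Abcb8 (7.35, others from 7.60).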

How the results depend on the processing

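No paired analysis was possible because the groups share no replicate numbers (1 to 4 and 5 to 8). Lhx2 and the calls of Abca8a, Abca8b and Abca9 held under each of 19 other fits. The number of ABC genes called higher was 5 with hepatocyte and endothelial scores as covariates (Abca1 and Abcc4 joined), and 3 to 4 when 1 array was left out. The number called lower was 1 after median centring, with the filter on dim genes, at 1.5-fold and without control 1 and control 4, 0 at an adjusted p under 0.01, and 0 to 2 when 1 array was left out. After median centring, Abcb11 was the gene called lower, and without control 1 and control 4 it was Abcb1b. Genes of the 15 other lists called higher numbered 26, and 15 without control 1 and control 4, at 0.01 and at 1.5-fold (19 to 25 with 1 array left out). Those called lower numbered 14, then 9 without control 1 and control 4 and 7 at 0.01 and at 1.5-fold (11 to 15 with 1 array left out). The number of transporters whose relation to Alb passed was 6, 0 without the 2 arrays farthest from the median Alb, and 0 to 5 when 1 array was left out. The ABC genes meeting the tracking rule numbered 1, 8 at a limit of 0.7, 0 at 0.9, 6 with the hepatocyte score, 4 without those 2 arrays, and 1 to 5 when 1 array was left out. The r of Abcb11 with Alb ran from -0.0061 (without control 1) to 0.74. Leaving out arrays lowers the number of values tested; other causes were not tested. Control 1 had the highest hepatocyte and control 4 the highest endothelial score. Dim genes near 6.77 and bright ones such as Alb and Abcc9 can understate differences.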
